A study of Homo sapiens with 61 samples.

Results

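The 7 genes described here encode intermediate filament proteins of nerve cells and their precursors: NEFL, NEFM and NEFH (the light, medium and heavy neurofilament subunits), INA (internexin alpha), PRPH (peripherin), VIM (vimentin) and NES (nestin). They were chosen by name, and their symbols were matched through GENCODE 29 to 7 of the 58440 gene identifiers in both count tables. RNA sequencing had been done on 61 libraries in 14 groups of neurons, described in the labels as cortical, made from WTC11. This is an established line of induced pluripotent stem cells of human origin. Neurons were induced by the neurogenic transcription factor NGN2 from a doxycycline-driven cassette, which all groups carry. In the first experiment the lines were wild type (WT), knockout (KO) for the kinase DLK (gene MAP3K12), knockout for the kinase LZK (gene MAP3K13), or knockout for both (double KO), with 4 libraries per group. In the second, all lines expressed the machinery for CRISPR interference, which represses a gene without cutting it, and received by lentivirus a guide RNA (gRNA) that was scrambled (Control gRNA) or aimed at the transcription factor ATF2 or JUN. Those groups had 5 libraries each, except 4 for ATF2 gRNA with vincristine, for which the count tables hold no replicate 1. Each line was given 5 nM vincristine, a drug that blocks microtubule assembly, or DMSO vehicle (called untreated below) for 16 h. The design text puts the treatment at day 14 of differentiation, while the protocol gives a range of days. Whether each knockout line is a single clone is not given in the sources used here. The labels do not say that replicates were separate cultures, so the p-values measure only the spread between these samples, which may be technical.

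Intermediate filaments are ropes of coiled-coil proteins that give a cell its mechanical strength. In axons NEFL, NEFM, NEFH and INA copolymerise and help to set axon calibre, and PRPH joins them mostly in neurons of the peripheral nervous system. NES and VIM form the filaments of neural progenitors and give way to neurofilaments as neurons mature. DLK and LZK are stress kinases that signal through the JNK pathway to transcription factors such as JUN and ATF2.

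Per library, 8.41 to 14.6 M counts fell on genes in the first experiment and 38.9 to 88.4 M in the second, and each experiment was tested on its own. The 7 filament genes took 0.796% to 1.53% of the counts in the first and 0.926% to 1.16% in the second, and all 7 passed the filter on low counts in both. In untreated cells the targeted genes were lower in the lines labelled for them: MAP3K12 averaged 91.0 CPM (counts scaled to a library of 1 M) for WT, 26.3 for DLK KO and 19.7 for double KO, and MAP3K13 99.1 for WT, 31.9 for LZK KO and 29.6 for double KO. ATF2 averaged 129 CPM with Control gRNA and 0.526 with its own gRNA, and JUN 88.5 CPM with Control gRNA, 2.87 with JUN gRNA and 21.0 with ATF2 gRNA. As a check of the neuronal label, the vesicular glutamate transporters SLC17A6 and SLC17A7 averaged 299 and 28.5 CPM in untreated WT, and POU4F1, a sensory neuron factor, 435 CPM. The 10 neuron markers summed to 3640 to 6110 CPM per library, 10 neural progenitor markers to 69.2 to 230 CPM, 7 mesenchymal markers to 0.568 to 9.16 CPM and 6 pluripotency markers to 8.09 to 74.2 CPM. One library stood apart: replicate 4 of vincristine-treated WT had a spread of 0.352 log2 units from its group, against a median of 0.132 over the 32 libraries. Beside several of the results that it moved, values without it are given.

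Levels of different genes were compared as CPM per kilobase of exon. In untreated WT the order was NEFM at 1429, NEFL at 793.8, INA at 452.6, NES at 129, VIM at 10.1, NEFH at 4.92 and PRPH at 0.653 CPM per kb, and neighbours in that order did not overlap between libraries. NEFM, NEFL and INA, the main axonal subunits, held the first places in that order in all 14 groups. The heavy subunit NEFH stood at 0.00621 ± 0.00111 (SD, n = 4) of the NEFL level per kb in untreated WT. In untreated double KO the lower part of the order differed: VIM at 36.6, PRPH at 25.8, NES at 16.6 and NEFH at 6.19 CPM per kb. Neighbours overlapped in 6 places: NEFM with NEFL and INA with NES in vincristine-treated WT, NEFL with INA in vincristine-treated Control gRNA, VIM with NEFH in vincristine-treated JUN gRNA, VIM with PRPH in untreated JUN gRNA, and NEFH with PRPH in vincristine-treated DLK KO. In bulk RNA, fewer cells of a type and less RNA per cell cannot be told apart, which holds for every level here.

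**Figure D1:**
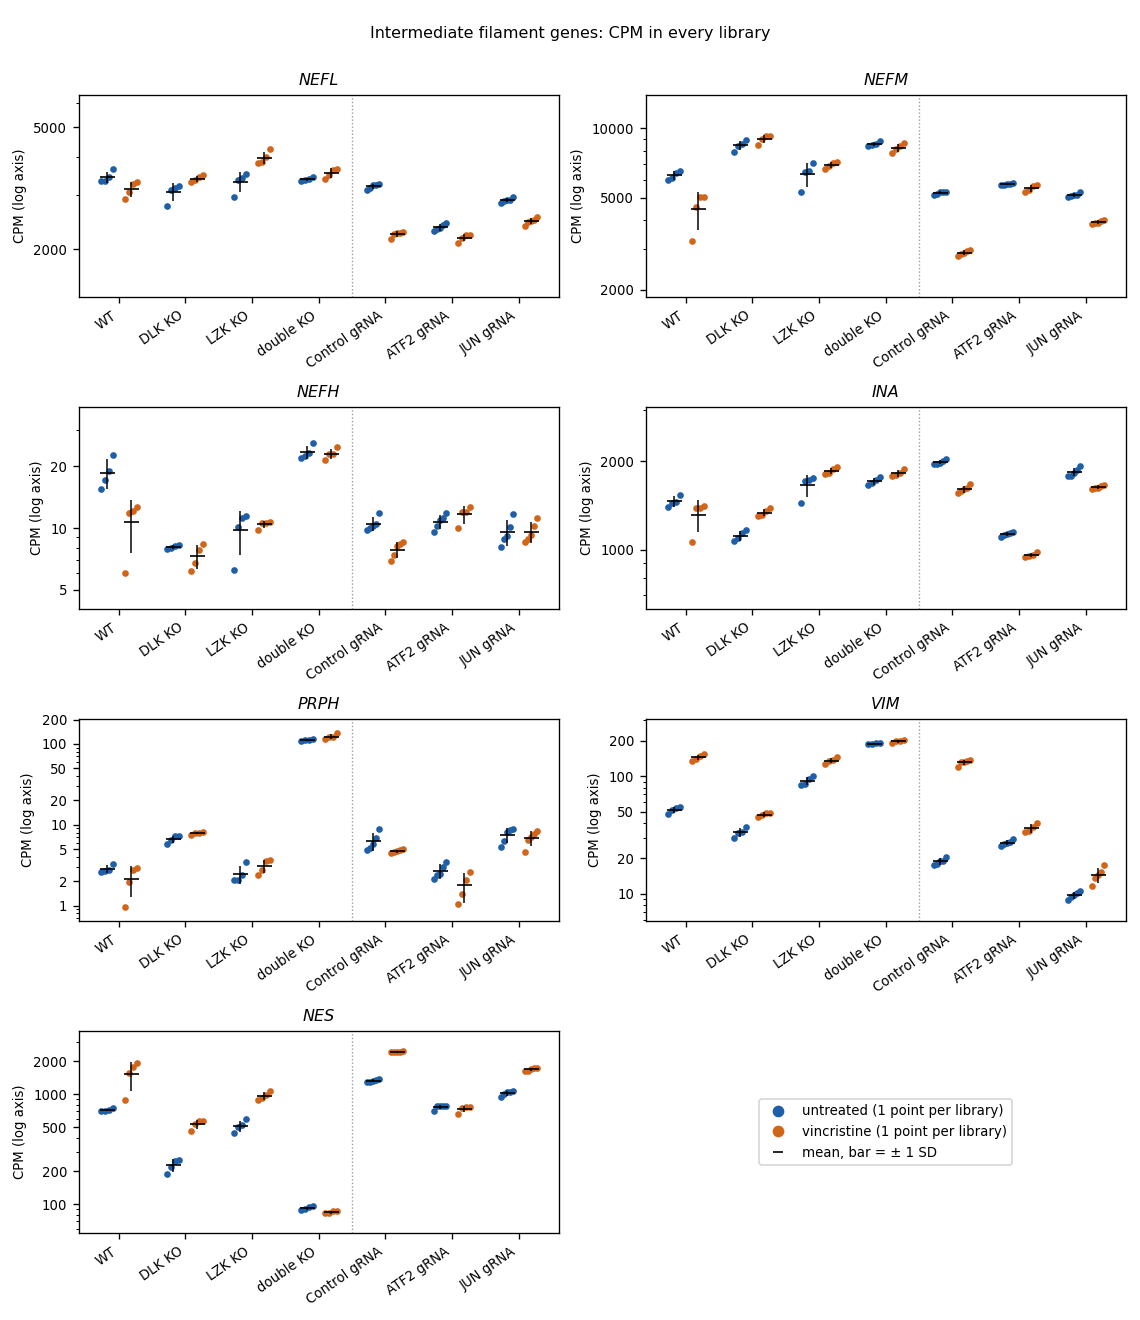
CPM (log axis) of the 7 genes in each of the 61 libraries by line and treatment, with the mean and 1 SD in black; the dotted line separates the experiments, which were scaled separately. PRPH averaged 112 CPM in untreated double KO against 2.84 CPM in untreated WT, and VIM is higher with vincristine in WT and Control gRNA.

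In both WT and Control gRNA cells, vincristine moved some of these genes up and others down. A gene was called, and is said to rise or fall, when its p-value from edgeR's quasi-likelihood test, with the Benjamini-Hochberg adjustment across every gene tested, was under 0.05. In WT, VIM and NES rose and NEFM and NEFH fell, 4 of 7 called, against 30.2% of the 18235 genes tested. With Control gRNA, VIM and NES rose and NEFL, NEFM, NEFH and INA fell, 6 of 7 called, against 35.3% of 20759 genes.

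The other lines gave fewer calls. In DLK KO, INA, VIM and NES rose, 3 of 7, against 6.53% of genes. In LZK KO, NEFL, VIM and NES rose, 3 of 7, against 3.88% of genes. In double KO edgeR called 0 of 7, against 0.0658% of genes (12 genes in all). There, 0 of 7 had an unadjusted p under 0.05 and DESeq2 also called 0 of 7, while a fit to the double KO groups alone called 2 of 7. The share of all genes called in that fit was not computed. With ATF2 gRNA, VIM rose and NEFL and INA fell, 3 of 7, against 6.10% of genes. With JUN gRNA, VIM and NES rose and NEFL, NEFM and INA fell, 5 of 7, against 15.9% of genes. The median log2 fold change of the 7 genes was -0.15 in WT and -0.41 with Control gRNA, where the median of all genes was -1.89e-05 and 0.0314.

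**Figure D2:**
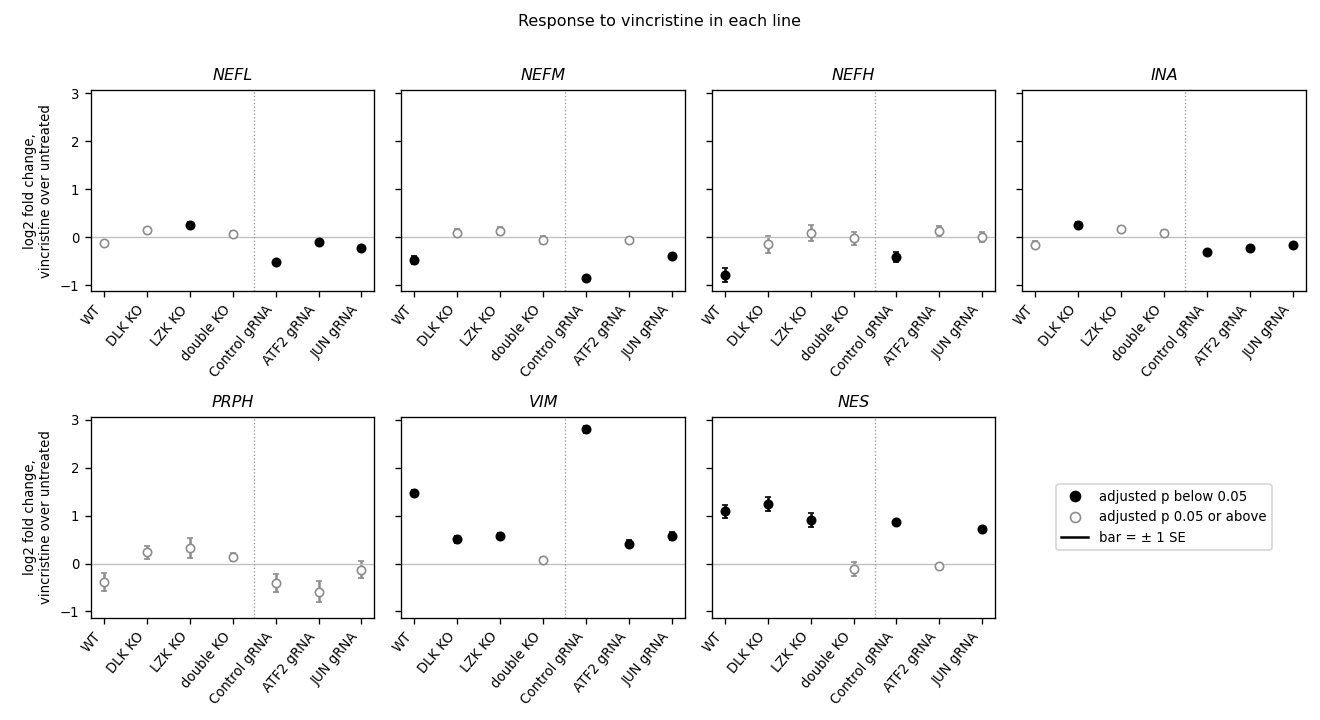
Log2 fold change with vincristine for the 7 genes in each line, with bars of 1 SE and filled points for an adjusted p under 0.05. VIM is at 2.80 with Control gRNA and 1.48 in WT, and in double KO the 7 values lie between -0.12 and 0.14 with no filled point.

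VIM and NES, the genes that rose in WT and Control gRNA, are shown with the sequence before their start, because the knockdowns target transcription factors. RefSeq promoter windows on GRCh38.p14 matched 4 of the 7 genes (VIM, NES, INA and PRPH). The lines below give, 5′ to 3′, the 250 bases before the start of VIM (chr10:17227991-17228240, plus strand) and of NES (chr1:156677408-156677657, minus strand), with capitals on each GC box (GGGCGG on either strand).
VIM: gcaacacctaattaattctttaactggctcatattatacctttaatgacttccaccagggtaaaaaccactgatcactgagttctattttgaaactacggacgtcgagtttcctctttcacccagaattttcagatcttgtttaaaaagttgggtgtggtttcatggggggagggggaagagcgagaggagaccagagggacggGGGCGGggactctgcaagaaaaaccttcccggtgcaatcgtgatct
NES: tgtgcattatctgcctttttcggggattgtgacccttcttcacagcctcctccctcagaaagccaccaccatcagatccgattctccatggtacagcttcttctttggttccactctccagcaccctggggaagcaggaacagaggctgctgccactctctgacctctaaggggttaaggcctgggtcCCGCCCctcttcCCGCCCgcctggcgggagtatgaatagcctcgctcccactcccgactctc
The AP-1 letters TGACTCA and the CRE letters TGACGTCA, which JUN and ATF2 family dimers are known to bind, were searched on both strands of the 300-base windows, which run from 250 bases before to 50 after the start. Neither was present in the windows of VIM, NES, INA or PRPH. Among all 35116 windows, 4.95% hold the AP-1 letters and 1.85% the CRE letters. GC boxes, held by 45.0% of windows, were found in VIM (1), NES (4, of which 2 lie after the start) and INA (4). The TATA letters TATAAA, held by 11.5% of windows, were found in PRPH, 31 to 26 bases before its start, and not in the other windows matched. The GC box and TATA letters were added after the windows had been seen.

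VIM (GRCh38 chromosome 10, 17228259 to 17237593, plus strand) encodes vimentin, a filament protein of mesenchymal cells and neural progenitors. In untreated WT its levels were 54.9, 54.0, 51.2 and 47.5 CPM in replicates 1 to 4, and with vincristine 154, 148, 135 and 140.5 CPM. Every treated WT library was above every untreated one. VIM rose by a log2 fold change of 1.48 ± 0.06 (SE), or 2.78-fold (adjusted p = 9.72e-20), and by 1.49 without replicate 4 of vincristine-treated WT. With Control gRNA its untreated levels were 17.8, 19.0, 17.7, 19.15 and 20.5 CPM, and its treated levels 133.5, 133, 131.5, 136 and 121 CPM. The groups were far apart: VIM rose by 2.80 ± 0.07, or 6.95-fold (adjusted p = 9.24e-32), and 1.19% of the genes tested had a larger change.

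In the single knockouts and knockdowns VIM rose by less. Its levels went from 30.0, 36.8, 33.0 and 33.4 to 49.0, 46.9, 48.4 and 44.5 CPM in DLK KO, and from 94.8, 85.5, 84.4 and 99.8 to 128, 137, 134 and 145 CPM in LZK KO. Treated and untreated libraries did not overlap in either line, with rises of 1.42-fold (adjusted p = 3.38e-06) and 1.49-fold (adjusted p = 4.83e-08). With ATF2 gRNA its levels were 25.2, 27.65, 27.2, 26.7 and 29.2 CPM untreated and 33.5, 34.3, 40.3 and 36.7 CPM treated, a 1.33-fold rise (adjusted p = 0.000145). With JUN gRNA they were 10.1, 8.82, 10.5, 9.46 and 9.75 CPM untreated and 13.5, 14.3, 15.4, 17.6 and 11.7 CPM treated, a 1.49-fold rise (adjusted p = 5.41e-08). Neither knockdown line showed overlap. In double KO the levels were 191, 191, 186 and 187 CPM untreated and 200.3, 199, 191 and 203 CPM treated, which overlap, and the log2 fold change was 0.07 ± 0.06 (adjusted p = 0.825).

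The differences between these VIM effects were tested themselves. On the log2 scale the effect minus that of WT was -0.97 ± 0.09 in DLK KO (adjusted p = 8.65e-10), -0.90 ± 0.09 in LZK KO (adjusted p = 3.77e-09) and -1.40 ± 0.09 in double KO (adjusted p = 2.25e-14). The double KO effect was also lower than that of DLK KO (-0.43 ± 0.09, adjusted p = 0.00842) and of LZK KO (-0.50 ± 0.09, adjusted p = 0.000833). The VIM effect minus that of Control gRNA was -2.39 ± 0.10 with ATF2 gRNA (adjusted p = 6.78e-23) and -2.22 ± 0.10 with JUN gRNA (adjusted p = 1.92e-21). ATF2 and JUN gRNA differed from each other by -0.16, with a 95% interval of -0.37 to 0.04 (adjusted p = 0.542).

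NES (chromosome 1, 156668763 to 156677397, minus strand) encodes nestin, the large filament protein of neural stem cells. In untreated WT its levels were 713, 746, 702 and 709 CPM, and with vincristine 1919, 1750.0, 1552 and 894 CPM. All treated libraries were higher, with replicate 4 far below the other 3. NES rose by 1.09 ± 0.14, or 2.13-fold (adjusted p = 4.75e-07), and by 1.28 without that library (adjusted p = 6.12e-14). With Control gRNA its levels went from 1287, 1348, 1292, 1321 and 1379 to 2398, 2494, 2415, 2414 and 2439 CPM, with no overlap. That was a rise of 0.88 ± 0.03, or 1.83-fold (adjusted p = 3.91e-25).

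NES rose in both single knockouts too. In DLK KO it went from 188, 219, 246.5 and 251 to 568, 576, 462 and 538 CPM, a 2.37-fold rise (adjusted p = 8.69e-07). In LZK KO it went from 526, 444, 590.3 and 503 to 921, 894, 983 and 1080.0 CPM, a 1.88-fold rise (adjusted p = 9.42e-05). Neither line showed overlap. The NES effect minus that of WT was 0.15 in DLK KO (95% interval -0.23 to 0.54, adjusted p = 0.641) and -0.18 in LZK KO (-0.56 to 0.20, adjusted p = 0.599). Without replicate 4 of vincristine-treated WT the NES difference was -0.03 in DLK KO, the other sign (adjusted p = 0.888), and -0.37 in LZK KO, where it was called (adjusted p = 0.0333).

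In double KO, NES was not called. Its levels were 95.3, 94.1, 89.2 and 89.9 CPM untreated and 87.6, 83.0, 82.4 and 86.2 CPM treated, so that every treated library was slightly lower, with a log2 fold change of -0.12 ± 0.14 (adjusted p = 0.884). Its effect differed from WT by -1.21 ± 0.20 (adjusted p = 5.53e-05), from DLK KO by -1.36 ± 0.20 (adjusted p = 0.000189) and from LZK KO by -1.03 ± 0.20 (adjusted p = 0.00539). The NES difference between double KO and WT was -1.40 without replicate 4 of vincristine-treated WT.

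The 2 knockdowns differed for NES. With ATF2 gRNA its levels were 788, 706, 777, 776 and 777 CPM untreated and 661, 751, 759.7 and 767 CPM treated, which overlap (log2 fold change -0.06 ± 0.04, adjusted p = 0.437). With JUN gRNA they went from 1014, 1038, 1050.0, 939 and 1063 to 1747, 1638, 1726, 1692 and 1642 CPM, a rise of 0.73 ± 0.03 or 1.65-fold (adjusted p = 2.78e-21). The NES effect minus that of Control gRNA was -0.93 ± 0.05 for ATF2 gRNA (adjusted p = 1.79e-19) and -0.15 ± 0.05 for JUN gRNA (adjusted p = 0.0283). Leaving out replicate 2 of vincristine-treated Control gRNA or replicate 2 of untreated JUN gRNA ended the latter call for NES (adjusted p up to 0.0528). ATF2 and JUN gRNA differed by -0.78 ± 0.05 (adjusted p = 4.25e-15). VIM and NES thus parted with JUN gRNA, where the VIM difference from Control gRNA was -2.22 and the NES difference -0.15.

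Per kilobase, NES stood at 65.4 ± 2.17 (SD, n = 5) times VIM in untreated Control gRNA and 17.3 ± 0.898 times with vincristine. The ratio was also lower with vincristine in WT (12.9 untreated, 9.77 treated) and with ATF2 gRNA (26.2 and 18.9). In DLK KO it was higher (6.32 and 10.6, without overlap). Treated and untreated libraries overlapped in LZK KO (5.28 and 6.63) and with JUN gRNA (97.6 and 110). In double KO, NES was the lower of the pair, at 0.453 ± 0.00852 (SD, n = 4) of VIM untreated and 0.397 ± 0.00849 with vincristine. The 10 progenitor markers summed to a median of 86.7 CPM in untreated Control gRNA and 91.7 CPM with vincristine. Of the 10, 3 were called higher and 1 lower, against 35.3% of all genes. In WT the progenitor list had medians of 112 and 113 CPM, with 2 of 10 called higher and 0 lower, against 30.2% of all genes. The 7 mesenchymal markers each averaged under 1 CPM in WT in both treatments. Of 3 tested in WT, edgeR called 0 higher and 1 lower, and DESeq2 called 0. With Control gRNA the mesenchymal markers summed to 1.77 to 2.41 CPM untreated and 3.20 to 3.98 CPM with vincristine, without overlap. Of 5 tested there, 1 was called higher, the collagen gene COL1A2 (named after its value was seen), and 0 lower, against 35.3% of all genes. The part of these markers in the VIM and NES results was not tested.

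**Figure D3:**
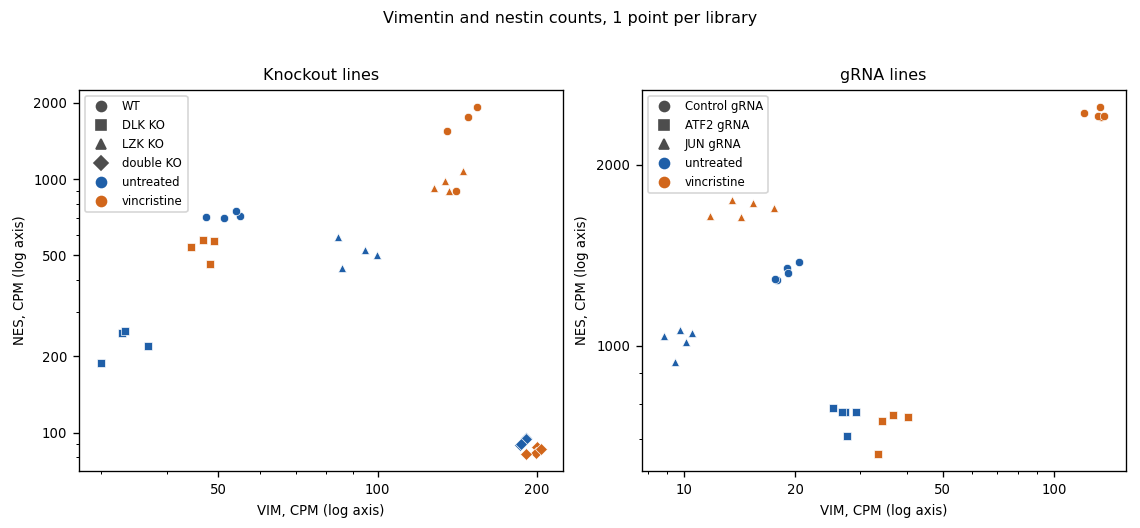
NES against VIM in CPM (both axes logarithmic) for each library, by line and treatment, in the 2 experiments. The double KO libraries lie between 186 and 203 CPM of VIM and 82.4 and 95.3 CPM of NES in both treatments, and the Control gRNA libraries move from 17.7 to 20.5 CPM of VIM to 121 to 136 CPM with vincristine.

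NEFM (chromosome 8, 24913012 to 24919098, plus strand), the medium neurofilament subunit, was the most abundant member per kilobase. Its levels in WT were 6085, 5980.0, 6411 and 6563 CPM untreated and 5055, 5051, 4546 and 3258 CPM with vincristine. All treated WT libraries were lower, with replicate 4 the lowest. NEFM fell by 0.48 ± 0.09 on the log2 scale, to 0.715-fold (adjusted p = 3.90e-05), and by 0.36 without that library (adjusted p = 5.12e-06). With Control gRNA it went from 5147, 5290.0, 5322, 5305 and 5200.0 to 2983, 2850.0, 2800.0, 2942 and 2899 CPM, with no overlap. NEFM fell there to 0.551-fold (log2 -0.86 ± 0.02, adjusted p = 1.55e-31).

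NEFM fell by less with JUN gRNA, and was not called with ATF2 gRNA. With JUN gRNA NEFM went from 5148, 5056, 5141, 5289 and 5088 to 3954, 3843, 4027, 3886 and 3899 CPM, or 0.762-fold (adjusted p = 2.51e-18). With ATF2 gRNA it had 5752, 5670.0, 5733, 5661 and 5776 CPM untreated and 5303, 5687, 5395 and 5629 CPM treated, which overlap (log2 -0.06, adjusted p = 0.189). The NEFM effect differed from Control gRNA by 0.80 ± 0.03 with ATF2 gRNA (adjusted p = 1.62e-23) and by 0.47 ± 0.03 with JUN gRNA (adjusted p = 1.05e-15), and between those lines by 0.34 ± 0.03 (adjusted p = 3.96e-10).

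In the knockout lines NEFM was not called with vincristine. Its range was 7903 to 8866 CPM untreated and 8444 to 9267 CPM treated in DLK KO, 5283 to 7076 and 6699 to 7172 CPM in LZK KO, and 8374 to 8788 and 7831 to 8609 CPM in double KO. The effects were 0.10, 0.13 and -0.05 on the log2 scale (adjusted p = 0.531, 0.480 and 0.920). They differed from WT by 0.58 ± 0.12 (adjusted p = 0.000794), 0.62 ± 0.12 (adjusted p = 0.000599) and 0.43 ± 0.12 (adjusted p = 0.00983). Without replicate 4 of vincristine-treated WT these NEFM differences were 0.45, 0.49 and 0.31, and all were called. Beside the NEFM falls, neuron markers summed to 5190 to 5320 CPM untreated and 5570 to 5800 CPM with vincristine in WT. There 3 of 10 were higher and 2 lower, against 30.2% of all genes. With Control gRNA the neuron markers summed to 4700 to 5190 and 4630 to 4820 CPM, with 3 higher and 5 lower, against 35.3% of all genes. The part of the neuron markers in the neurofilament results was not tested.

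NEFL (chromosome 8, 24950955 to 24957110, minus strand), the light subunit on which neurofilament assembly depends, fell with Control, ATF2 and JUN gRNA and rose in LZK KO. In WT its levels were 3343, 3439, 3639 and 3326 CPM untreated and 3259, 3313, 3066 and 2919 CPM with vincristine, all lower but not called (-0.13 ± 0.05, adjusted p = 0.0619), while DESeq2 called it (adjusted p = 0.0448). With Control gRNA they went from 3243, 3266, 3110.0, 3244 and 3170.0 to 2278, 2265, 2265, 2242 and 2167 CPM, a fall to 0.7-fold with no overlap (adjusted p = 1.85e-22). NEFL fell with JUN gRNA from a range of 2833 to 2961 to one of 2386 to 2543 CPM (-0.23 ± 0.02, adjusted p = 4.17e-10). With ATF2 gRNA it fell from 2296 to 2427 to 2101 to 2230.0 CPM (-0.11 ± 0.03, adjusted p = 0.00454), a call lost without replicate 2 of vincristine-treated ATF2 gRNA (adjusted p = 0.058).

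In LZK KO NEFL rose instead, from 3424, 2954, 3514 and 3372 to 3988, 3858, 3812 and 4232 CPM, or 1.20-fold (adjusted p = 0.002); in a fit to the LZK KO groups alone it was not called (adjusted p = 0.118). In DLK KO the NEFL effect was 0.14 (adjusted p = 0.100) and in double KO 0.07 (adjusted p = 0.816). The NEFL effect exceeded that of WT by 0.27 ± 0.08 in DLK KO (adjusted p = 0.00952) and 0.39 ± 0.08 in LZK KO (adjusted p = 0.000413), and in double KO it differed by 0.20 (adjusted p = 0.0609). It exceeded that of Control gRNA by 0.41 ± 0.04 with ATF2 gRNA (adjusted p = 8.56e-13) and 0.29 ± 0.03 with JUN gRNA (adjusted p = 9.50e-09). NEFL effects with ATF2 and JUN gRNA differed by 0.12 (adjusted p = 0.0488), a call lost without any 1 of 9 of the 19 libraries.

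The NEFM to NEFL ratio per kilobase describes the balance of the pair in each library. In WT it averaged 1.80 ± 0.104 (SD, n = 4) untreated and 1.40 ± 0.201 with vincristine, where replicate 4 gave the lowest value of 1.10. With Control gRNA it averaged 1.62 ± 0.0452 (SD, n = 5) and 1.28 ± 0.0415, with no overlap. With ATF2 gRNA it was 2.40 and 2.49, with JUN gRNA 1.76 and 1.57, in DLK KO 2.71 and 2.62, in LZK KO 1.89 and 1.73, and in double KO 2.49 and 2.30.

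**Figure D4:**
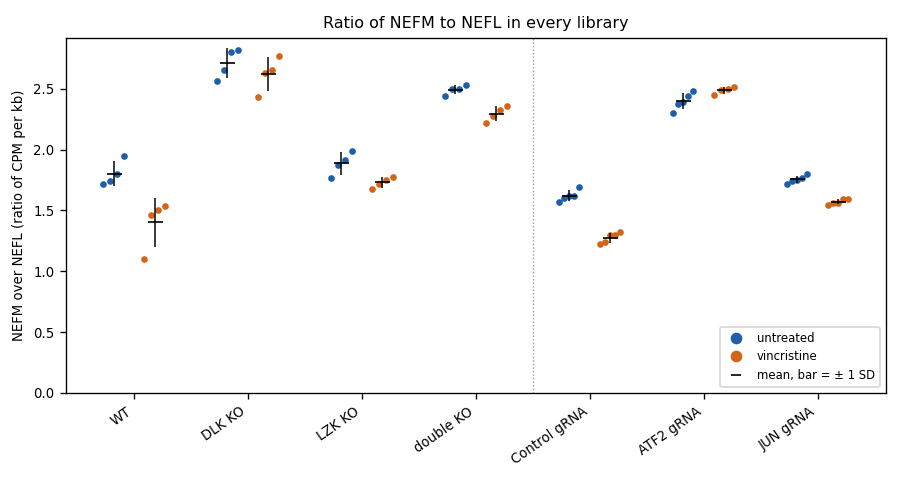
Ratio of NEFM to NEFL, each in CPM per kilobase, in every library by line and treatment, with the mean and 1 SD; the axis starts at 0. Control gRNA averages 1.62 untreated and 1.28 with vincristine, and DLK KO lies highest at 2.71 and 2.62.

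NEFH (chromosome 22, 29480230 to 29491390, plus strand), the heavy subunit added late in axon maturation, was low throughout. In WT its levels were 15.5, 17.2, 19.0 and 22.75 CPM untreated and 11.85, 12.7, 12.1 and 6.04 CPM with vincristine, with no overlap and replicate 4 lowest. NEFH fell by 0.79 ± 0.15 on the log2 scale, to 0.577-fold (adjusted p = 6.80e-05), and by 0.61 without that library (adjusted p = 0.000134). With Control gRNA it fell from 11.9, 9.79, 10.45, 9.96 and 10.3 to 8.13, 8.505, 8.35, 6.91 and 7.35 CPM (0.750-fold, adjusted p = 0.00121). Treated and untreated Control gRNA libraries did not overlap. In the 5 other lines NEFH was not called, with effects from -0.15 in DLK KO to 0.12 with ATF2 gRNA.

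The NEFH effect exceeded that of WT by 0.88 ± 0.22 in LZK KO (adjusted p = 0.0064, and 0.0568 in a fit to those groups alone) and by 0.77 ± 0.20 for double KO (adjusted p = 0.00532). With any 1 library left out, the NEFH effect exceeded that of WT by at least 0.7 in LZK KO and 0.59 in double KO, both still called. In DLK KO it exceeded WT by 0.64 ± 0.23 (adjusted p = 0.0425), but leaving out any 1 of 10 of the 16 libraries ended that NEFH call, and without replicate 4 of vincristine-treated WT it was 0.45 (adjusted p = 0.0825). Against Control gRNA the NEFH difference was 0.54 ± 0.15 with ATF2 gRNA (adjusted p = 0.00766) and 0.42 ± 0.15 with JUN gRNA (adjusted p = 0.0442), the latter lost without any 1 of 12 of the 20 libraries. ATF2 and JUN gRNA differed by 0.12 for NEFH (adjusted p = 0.835).

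INA (chromosome 10, 103277163 to 103290351, plus strand) encodes internexin alpha, which copolymerises with neurofilaments in central neurons. In WT its levels were 1401, 1459, 1541 and 1447 CPM untreated and 1392, 1408, 1392 and 1065 CPM with vincristine, which overlap (-0.15, adjusted p = 0.0622), while DESeq2 called it (adjusted p = 0.047). Without replicate 4 of vincristine-treated WT the INA effect was -0.07 (adjusted p = 0.35). With Control gRNA INA fell from 2005, 1962, 1962, 1979 and 2039 to 1677, 1589, 1612, 1618 and 1557 CPM (0.810-fold, adjusted p = 5.26e-14). It also fell with ATF2 gRNA, from 1129, 1142, 1125, 1110.0 and 1151 to 946, 983, 955 and 963 CPM (0.850-fold, adjusted p = 2.30e-08), and with JUN gRNA (0.888-fold, adjusted p = 9.18e-07). In these 3 lines treated and untreated libraries did not overlap.

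In DLK KO INA rose, from 1140.0, 1094, 1070.0 and 1167 to 1352, 1318, 1387 and 1300.0 CPM (1.20-fold, adjusted p = 0.00918). For LZK KO and double KO the INA effects were 1.12-fold (adjusted p = 0.161) and 1.06-fold (adjusted p = 0.802). INA effects exceeded that of WT by 0.42 ± 0.09 in DLK KO (adjusted p = 0.000951) and 0.32 ± 0.09 in LZK KO (adjusted p = 0.0145; 0.0886 in a fit to those groups alone). For double KO the INA difference was 0.24 (adjusted p = 0.0515, and called by DESeq2 with an adjusted p of 0.0364). Without replicate 4 of vincristine-treated WT these 3 INA differences were 0.33, 0.23 and 0.155, the first 2 still called. The INA difference from Control gRNA was 0.13 ± 0.04 with JUN gRNA (adjusted p = 0.00564), lost without replicate 5 of untreated JUN gRNA (adjusted p = 0.0599), and 0.07 with ATF2 gRNA (adjusted p = 0.186).

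Over the 7 genes, the effects of vincristine differed from WT for 5 in DLK KO (4 higher, 1 lower), against 19.4% of genes. They differed for 5 in LZK KO (4 higher, 1 lower), against 12.4%, and for 4 in double KO (2 higher, 2 lower), against 19.4%. Double KO differed from DLK KO for 2 of 7, against 1.14%, and from LZK KO for 2 of 7, against 0.916%, VIM and NES both times. Fits to only the groups compared gave 3 of 7 for LZK KO against WT and 4 of 7 for double KO against DLK KO. The shares of all genes called in those fits were not computed. Against Control gRNA the effects differed for 5 of 7 with ATF2 gRNA (3 higher, 2 lower), against 20.6% of genes, and for 6 of 7 with JUN gRNA (4 higher, 2 lower), against 15.8%. ATF2 and JUN gRNA differed for 3 of 7 (NEFL, NEFM and NES), against 2.83%. These comparisons share WT or Control gRNA libraries and are not independent of each other.

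PRPH (chromosome 12, 49293252 to 49298686, plus strand) encodes peripherin, the filament protein typical of peripheral and sensory neurons, and was called in 0 of 7 lines with vincristine and for 0 of 8 differences between lines. Its vincristine effects ran from -0.59 with ATF2 gRNA (adjusted p = 0.0997) to 0.33 in LZK KO (adjusted p = 0.457), DESeq2 also called 0 of these 15, and 5 of the 15 had an unadjusted p under 0.05. Single libraries moved several of these values. In WT the PRPH effect was -0.385 (adjusted p = 0.139), -0.58 and called without replicate 3 of vincristine-treated WT (adjusted p = 0.0386), and -0.17 without replicate 4 (adjusted p = 0.543). The PRPH effect minus that of WT was 0.62 for DLK KO, 0.71 for LZK KO and 0.52 for double KO, none of them called; these differences were each called without that replicate 3 and were 0.405, 0.50 and 0.30 without replicate 4. PRPH was called with Control gRNA without replicate 5 of untreated Control gRNA (-0.49, adjusted p = 0.0477) and in a fit to those groups alone (-0.41, adjusted p = 0.0279). It was called with ATF2 gRNA without replicate 4 of vincristine-treated ATF2 gRNA (-0.83, adjusted p = 0.0248), and for double KO in a fit to its own groups (0.14, adjusted p = 0.0411).

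PRPH was the member with the largest difference between untreated lines. Untreated levels were 2.58, 2.70, 3.30 and 2.78 CPM in WT and 112, 116, 109 and 112 CPM in double KO. Each double KO library was far above each WT library, a log2 difference of 5.28 ± 0.13, or 38.9-fold (adjusted p = 3.47e-28), and 0.521% of genes differed by more. DLK KO had 7.17, 5.78, 7.16 and 6.45 CPM, above WT without overlap (2.31-fold, adjusted p = 1.02e-07), and LZK KO had 2.05, 2.04, 2.40 and 3.41 CPM, which overlap WT (-0.21, adjusted p = 0.433). With vincristine double KO stayed at 117, 121, 121 and 135 CPM.

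In the second experiment untreated PRPH was at 5.75, 8.76, 5.12, 6.90 and 4.86 CPM with Control gRNA and at 2.11, 2.38, 2.43, 3.49 and 2.96 CPM with ATF2 gRNA. The ATF2 gRNA libraries were all lower (0.430-fold, adjusted p = 7.54e-07). JUN gRNA ranged from 5.32 to 8.95 CPM and overlapped Control gRNA (0.25, adjusted p = 0.491). The antisense gene AC125611.4 overlaps PRPH over its full length. It had a median of 2 counts against 52.5 for PRPH in the first experiment and 2 against 281 in the second. Antisense genes also overlap parts of NEFL, NEFM, NEFH and VIM. The one with the most counts, AF106564.1 over NEFM, had medians of 262.5 and 669, against 78512.5 and 253566 for NEFM. For VIM-AS1 over VIM they were 17.5 and 24, against 1031.5 and 1195. Whether counting used the strand is not given in the sources used here.

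Of 8 peripheral and sensory neuron markers, 6 were tested, and beside PRPH in untreated double KO 3 were higher and 2 lower than in WT, against 45.7% of all genes called. ISL1, a transcription factor of sensory and motor neurons, was higher by 5.74 on the log2 scale (66.3 CPM against 1.21), and RET, a receptor for neurotrophic factors, by 1.12. POU4F1, a transcription factor of sensory neurons, was lower (-1.11). In untreated DLK KO 4 were higher, among them ISL1 by 4.05, and POU4F1 was lower (-1.18), against 34.5% of all genes called. In untreated LZK KO, where PRPH was not called, 1 was higher and 4 lower, with a median log2 difference of -1.51. Of all genes 33.9% were called there. The list summed to 459 to 493 CPM for WT, 275 to 323 for DLK KO, 148 to 187 for LZK KO and 330.0 to 355 for double KO. With ATF2 gRNA, where PRPH was lower, 1 of 6 was higher and 3 lower, against 39.9% of all genes. The list summed there to 329 to 350 CPM against 585 to 603 with Control gRNA. With vincristine the list summed to 124 to 239 CPM in WT and 268 to 288 CPM with Control gRNA. It summed to 287 to 297 CPM with ATF2 gRNA and, with JUN gRNA, to 406 to 448 CPM against 523 to 550 CPM untreated. In these lines the treated libraries were lower without overlap, while in DLK KO, LZK KO and double KO they overlapped. In WT 0 of 6 were called higher and 3 lower with vincristine, against 30.2% of all genes. The part of these markers in the PRPH results was not tested. Within 500 kb of PRPH, 28 genes were tested in untreated double KO against WT. Of these 9 were higher and 5 lower, a share near the 45.7% of all genes. Their log2 differences ran from -0.48 to 4.36, with a median of 0.16, where PRPH itself stood at 5.28.

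The remaining members also differed between untreated lines. In DLK KO 7 of 7 were called (2 higher, 5 lower), against 34.5% of genes, in LZK KO 4 of 7 (2 higher, 2 lower), against 33.9%, and in double KO 6 of 7 (5 higher, 1 lower), against 45.7%. With ATF2 gRNA 6 of 7 were called (2 higher, 4 lower), against 39.9%, and with JUN gRNA 4 of 7, all lower, against 11.2%.

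NES was lower than its control in all 5 untreated comparisons. Compared with WT it stood at 0.315-fold in DLK KO (adjusted p = 1.63e-10), 0.719-fold in LZK KO (adjusted p = 0.00809) and 0.128-fold for double KO (adjusted p = 1.02e-15), and at 0.577-fold of Control gRNA with ATF2 gRNA (adjusted p = 7.94e-24) and 0.770-fold with JUN gRNA (adjusted p = 1.19e-11). VIM went both ways: 0.641-fold in DLK KO (adjusted p = 8.19e-10) and 0.518-fold with JUN gRNA (adjusted p = 7.39e-14), but 1.76-fold in LZK KO (adjusted p = 8.98e-13), 3.63-fold in double KO (adjusted p = 1.84e-23) and 1.44-fold with ATF2 gRNA (adjusted p = 2.22e-08). No group of these untreated NES and VIM comparisons overlapped its control. Untreated VIM in double KO, at 186 to 191 CPM, was above vincristine-treated WT, at 135 to 154 CPM.

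Beside these levels, neural progenitor markers were higher than in WT for 7 of 10 in DLK KO, 8 of 10 in LZK KO and 5 of 10 in double KO, with 2, 1 and 1 lower. Of all genes, 34.5%, 33.9% and 45.7% were called in these comparisons. The median sums of the progenitor markers were 112 CPM for WT, 91.5 for DLK KO, 192 for LZK KO and 134 for double KO. Of 3 pluripotency markers tested, 2, 3 and 3 were higher, and the pluripotency gene LIN28A averaged 1.88 CPM in WT, 7.40 CPM in the DLK KO, 15.2 CPM in the LZK KO and 53.4 CPM in the double KO. With ATF2 gRNA 4 of 10 progenitor markers were higher than with Control gRNA and 1 lower, with sums of 86.7 to 98.2 against 84.3 to 88.0 CPM. In that comparison 39.9% of all genes were called. With JUN gRNA the progenitor markers summed to 69.2 to 82.2 CPM, below Control gRNA without overlap. DESeq2 called 0 of the 10 higher and 3 lower there, while edgeR called 11.2% of all genes. Mesenchymal markers summed to 6.94 to 8.16 CPM with ATF2 gRNA against 1.77 to 2.41 CPM with Control gRNA, without overlap, with 2 of 5 higher and 1 lower. The 6 astroglia markers, of which 5 averaged under 1 CPM in untreated WT, summed to 289 to 306 CPM there. Their sums were 257 to 270 CPM in DLK KO, 345 to 399 in LZK KO and 281 to 301 in double KO. With ATF2 gRNA they were 169 to 209 CPM, against 180 to 246 CPM with Control gRNA. The part of all these markers in the untreated VIM and NES differences was not tested.

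Among the neurofilament subunits, untreated NEFM was higher in DLK KO (1.35-fold, adjusted p = 0.000146), double KO (1.36-fold, adjusted p = 5.10e-05) and ATF2 gRNA (1.09-fold, adjusted p = 1.43e-05). NEFH was lower in DLK KO (0.434-fold, adjusted p = 6.09e-08) and LZK KO (0.525-fold, adjusted p = 7.19e-06) and higher in double KO (1.26-fold, adjusted p = 0.0468), a NEFH call lost without any 1 of 5 of the 8 libraries. INA was lower in DLK KO (0.764-fold, adjusted p = 5.54e-06), ATF2 gRNA (0.569-fold, adjusted p = 1.69e-29) and JUN gRNA (0.926-fold, adjusted p = 0.00149). It was higher in double KO (1.17-fold, adjusted p = 0.00291) and LZK KO (1.13-fold, adjusted p = 0.0228), the INA call in LZK KO being lost without any 1 of 6 of the 8 libraries. NEFL was lower with ATF2 gRNA (0.734-fold, adjusted p = 2.12e-20), JUN gRNA (0.903-fold, adjusted p = 1.25e-05) and in DLK KO (0.894-fold, adjusted p = 0.0174), where the NEFL difference was -0.10 without replicate 3 of untreated DLK KO and the call was lost, as it was without replicate 3 of untreated WT. Beside the lower subunits, 5 of 10 neuron markers were lower and 1 higher in DLK KO, against 34.5% of all genes. The neuron markers summed there to 3640 to 3990 CPM against 5190 to 5320 CPM in WT. With ATF2 gRNA 6 were lower and 3 higher (3990 to 4380 against 4700 to 5190 CPM with Control gRNA), and with JUN gRNA 3 were lower and 0 higher (4670 to 5040 CPM). Of all genes, 39.9% were called with ATF2 gRNA and 11.2% with JUN gRNA. In LZK KO 2 neuron markers were lower and 1 higher and in double KO 4 lower and 4 higher, against 33.9% and 45.7% of all genes. Their sums were 5540 to 5890 and 5980 to 6110 CPM.

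**Figure D5:**
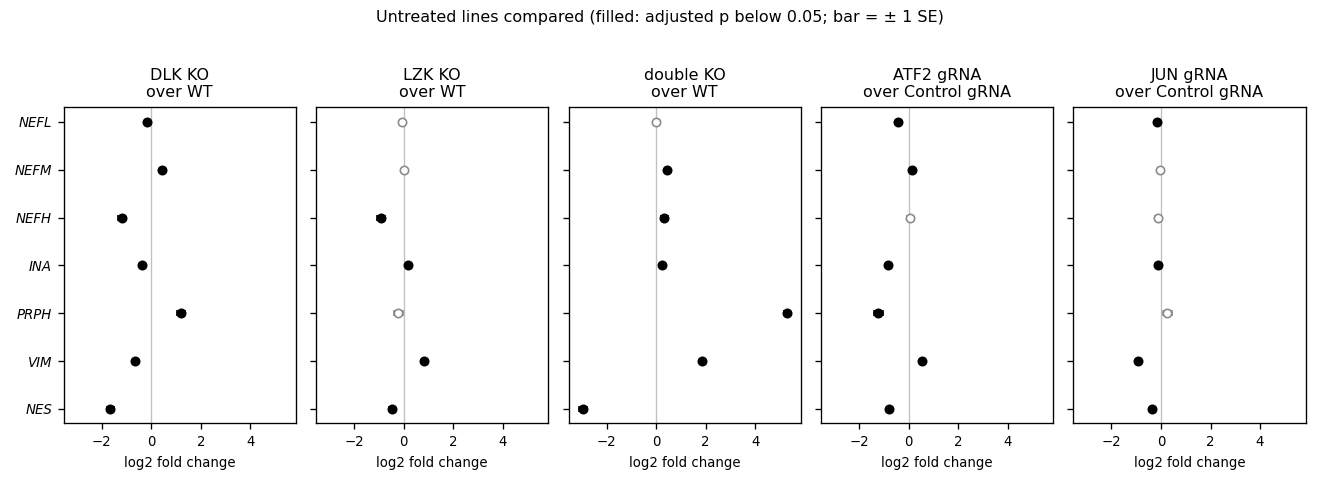
Log2 difference of each gene between an untreated line and its control (WT or Control gRNA), with bars of 1 SE and filled points for an adjusted p under 0.05. PRPH in double KO stands at 5.28, NES in double KO at -2.96, and NES is below 0 in all 5 comparisons.

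To place the members among other genes, 12337 genes were ranked by the lower of their 2 correlations with a member, over the 32 libraries of the first experiment and the 29 of the second. NES was matched most closely by ZNF704 (r = 0.959 and 0.958), HELZ2 (0.957 and 0.979) and DUSP16 (0.957 and 0.980). VIM was followed by PIK3R1 (r = 0.851 and 0.919), SERPINE2 and SYT4, NEFM by SORT1 (0.911 and 0.916), SHISA6 and SLIT3, and INA by PRKCZ (0.934 and 0.971), KIAA1549L and ANKS1A. PRPH was followed by SHISAL1 (0.916 and 0.900), MAP4K2 and OPRL1, and NEFL by YWHAG (0.773 and 0.867), MARCKS and INA. BRINP3 and LSM14B were among the 3 genes closest to NEFH. Among members, NEFM and NES ran opposite in both experiments (r = -0.636 and -0.919), while PRPH and NES did not keep one sign (-0.905 and 0.543). The libraries share lines and treatments, so these values describe group patterns and are not independent points.

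Other intermediate filament genes also changed with vincristine. Of 15 listed, 8 were tested in WT, with 3 higher and 1 lower, and 9 with Control gRNA, with 4 higher and 1 lower, against 30.2% and 35.3% of all genes called. KRT8, an epithelial keratin, rose by 1.72 in WT and 1.89 with Control gRNA, and SYNM (synemin), a partner of vimentin, by 1.02 and 0.60. BFSP1, a lens filament protein, rose by 0.79 and 0.90. DLK KO and JUN gRNA had 2 higher each, against 6.53% and 15.9% of all genes. In double KO, LZK KO and with ATF2 gRNA edgeR and DESeq2 called 0 of this list, where 1, 2 and 1 had an unadjusted p under 0.05.

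Of 19 genes for linkers, motors, kinases and turnover of filaments, all tested, 3 were higher and 4 lower in WT and 5 higher and 8 lower with Control gRNA, against 30.2% and 35.3% of all genes. OGT, the enzyme that adds sugar to neurofilament tails, rose by 0.48 on the log2 scale in WT, and STUB1, a ubiquitin ligase of protein quality control, fell by 0.355. With Control gRNA DST (dystonin), a linker of filaments to microtubules, rose by 0.50, KIF5B, a kinesin motor, by 0.47, and CDK5, a neurofilament kinase, fell by 0.41 on the log2 scale. In DLK KO 3 were higher, with ATF2 gRNA 1 was higher and 2 lower, and with JUN gRNA 3 were higher and 5 lower. Of all genes, 6.53%, 6.1% and 15.9% were called in these lines. In double KO and LZK KO edgeR and DESeq2 called 0 of the 19, where 0 and 3 had an unadjusted p under 0.05.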

How the data were processed

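The authors deposited 2 tables of read counts per gene, whole numbers that are not normalized, on poly(A) RNA sequenced as paired reads with a stranded kit, per the labels' protocols. Per the submitters' processing notes, cutadapt 3.4, STAR, featureCounts (Subread 2.0.1) and the GRCh38 build were used. The strand setting of the counting is not given in the sources used here. Symbols came from GENCODE 29, through which 58320 of 58440 identifiers were matched.

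Groups followed the labels. The main test was edgeR 4.0.16 (R 4.3.3), quasi-likelihood with robust fitting, TMM scaling and the filterByExpr filter by group, in 1 fit per experiment over all its libraries, with p-values with the Benjamini-Hochberg adjustment across every gene tested and a threshold of 0.05. It was tested on simulated data. CPM used TMM factors, and per-kilobase values the exon lengths in the deposited tables. Precision is limited by 8.41 to 88.4 M counts per library; PRPH had as few as 9 counts in a library and NEFH 52. No pair of the 104 replicate pairs was identical. Alternatives were DESeq2 1.42.0, RLE factors, scaling on protein-coding genes, no filter or one at a mean of 1 CPM, a block for the replicate number, fits restricted to the groups compared, and dropping each library in turn. All 7 genes were named. From 2 other lists, the 3 genes named were picked by rule from those called, and the 3 genes most like each member by the lower of 2 correlations; some genes so picked are not reported here. The members and lists were chosen with earlier results of these data known.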

Additional observations from a re-analysis of the deposited data

Results flagged for a closer look

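Among 98 sets of a gene in a group, 6 held a library far below the others of its group, where chance gives about 1 in 20 groups. These were INA at 1448 CPM in replicate 2 of untreated LZK KO, INA at 1065 CPM and NEFH at 6.04 CPM in replicate 4 of vincristine-treated WT, NES at 706 CPM in replicate 2 of untreated ATF2 gRNA and at 661 CPM in replicate 2 of vincristine-treated ATF2 gRNA, and PRPH at 7.43 CPM in replicate 3 of vincristine-treated DLK KO. Replicate 4 of vincristine-treated WT is the library with the largest spread from its group in the first experiment.

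The effect of vincristine differed between lines, by an interaction test, in 32 of 56 comparisons of the 7 genes. Of all genes, 0.916% (double KO against LZK KO) to 20.6% (ATF2 gRNA against Control gRNA) were called in these differences. The comparisons share libraries and are not independent, and several of the calls were lost without a single library, as given above. Against WT, on the log2 scale, DLK KO differed for NEFL by 0.27, NEFM by 0.58, NEFH by 0.64, INA by 0.42 and VIM by -0.97. LZK KO differed for NEFL by 0.39, NEFM by 0.62, NEFH by 0.88, INA by 0.32 and VIM by -0.90. Double KO differed for NEFM by 0.43, NEFH by 0.77, VIM by -1.40 and NES by -1.21. Double KO differed from DLK KO for VIM by -0.43 and NES by -1.36, and from LZK KO for VIM by -0.50 and NES by -1.03.

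Against Control gRNA, ATF2 gRNA differed for NEFL by 0.41, NEFM by 0.80, NEFH by 0.54, VIM by -2.39 and NES by -0.93. JUN gRNA differed for NEFL by 0.29, NEFM by 0.47, NEFH by 0.42, INA by 0.13, VIM by -2.22 and NES by -0.15. ATF2 and JUN gRNA differed for NEFL by 0.12, NEFM by 0.34 and NES by -0.78.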

How the results depend on the processing

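Over 140 results for the 7 genes, 2681 alternative values were computed: 2587 kept their side of the threshold, 65 lost a call and 29 gained one. Of the 2587, 16 that were not called changed sign. Among results called in the main fit or the alternative, 0 changed sign. Of 83 calls, 71 were kept under every alternative and 12 were lost under at least 1. Fits to only the groups compared changed the number of members called from 0 to 2 for vincristine in double KO. They changed it from 5 to 3 for the difference between LZK KO and WT, and from 2 to 4 for the difference between double KO and DLK KO. These fits lost 7 calls and gained 6, and the cause was not tested. The share of all genes called in them was not computed. RLE factors gained 2 calls, no filter lost 5, protein-coding scaling lost 2, DESeq2 gained 4 and a filter at a mean of 1 CPM changed 0. Whether the replicate numbers pair the libraries is not stated in the labels. Same-numbered libraries of treated and untreated groups had correlations of -0.176 to 0.11. In all, 17 of 61 libraries correlated best with their own number, from 0 of 8 in WT to 6 of 10 with JUN gRNA. With so few libraries per group these values cannot exclude pairing. With the replicate number as a block 3 calls were lost: NEFH in DLK KO minus WT (0.64, adjusted p = 0.0595), NEFH in untreated double KO minus WT (0.33, adjusted p = 0.0627) and NEFL in ATF2 minus JUN gRNA (0.12, adjusted p = 0.058). Leaving out 1 library gained calls as well. PRPH was called without replicate 3 of vincristine-treated WT in WT (-0.58) and for the differences of DLK KO (0.81), LZK KO (0.91) and double KO (0.72) from WT. It was also called for DLK KO minus WT without replicate 1 of vincristine-treated WT (0.73), for LZK KO minus WT without replicate 4 of untreated LZK KO (0.89), with Control gRNA without its untreated replicate 5 (-0.49) and with ATF2 gRNA without its treated replicate 4 (-0.83). INA was called in WT without replicate 1 or 2 of vincristine-treated WT, and for double KO minus WT without any 1 of 5 libraries (0.26 to 0.28). NEFL was called for double KO minus WT without replicate 2 of vincristine-treated WT (adjusted p = 0.0445), and NES for LZK KO minus WT without its replicate 4 (-0.37). PRPH had as few as 9 counts in a library and NEFH 52, which limits their precision.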
